A study of Mus musculus with 9 samples.

Results

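The TREM, CD200R and CD300 receptors are cell surface proteins of myeloid cells, and 10 genes of these families and their adaptor were followed here, out of 55401 genes in the table. They were Trem1, Trem2 and Trem3, the adaptor gene Tyrobp, Cd200r1 and Cd200r4, and Cd300a, Cd300ld, Cd300lf and Cd300c2. The rule took the rows of these symbols, and the symbols had been chosen with the fold changes of these samples in view, so the levels and changes of the 10 genes are given as a description. Where one of them is said to be called, this says only on which side of the limits used for all genes its values fell, and is no test of it. All 10 symbols were matched, each to 1 Ensembl identifier. Of these, 9 were among the 12819 genes whose mean TPM over all columns was at least 1, and Trem1 was not.

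Many receptors of these families come as pairs with like outer parts and opposite tails. Activating receptors such as TREM1, TREM2, CD200R4 and most CD300L proteins have no signaling motif of their own and borrow the motif (an ITAM, which recruits the kinase SYK) of an adaptor such as TYROBP, also called DAP12. Inhibitory receptors such as CD300A, CD300LF and CD200R1 carry tails that recruit phosphatases or DOK adaptors. In macrophages, TREM1 is known to amplify inflammatory responses, whereas TREM2 binds lipids and lipoproteins and is known for its part in phagocytosis.

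RNA-seq data came from RAW264.7 cells, a wild-type macrophage line derived from a tumor that Abelson murine leukemia virus induced in a male mouse. There were 9 samples in 3 groups of 3, treated with DMSO (the vehicle), with DMSO and LPS, or with LPS and skatole. LPS is a bacterial wall component that drives M1 polarization, and skatole (Ska) is an indole compound that was tested as a modulator of this polarization. The labels give 24 h of treatment, whereas the methods of the study give a longer one, and no skatole dose is stated for these samples. There was no group with skatole alone. All samples are of 1 cell line, and nothing states that the replicates, numbered 5, 6 and 7, were separate cultures, so the tests measure only the spread between these columns.

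The values are TPM (a transcript's share of a column, scaled for its length and to a fixed total), which keep no sequencing depth, so depth is unknown. TPM summed to between 999894.9 and 1000144.6 per column, and between 12498 and 13012 genes per column reached 1 TPM. In both groups with LPS the columns were tied. Replicate 5 lay exactly between replicates 6 and 7 in 17950 of 17950 genes with LPS, and in 17658 of 17658 genes with LPS + Ska, with both outer values above 0 (tolerance 1e-05 TPM), whereas this was so in at most 0.0614% of genes for a DMSO column. The tie held for 9 of the 10 genes in each of these groups. In these groups the 3 columns thus carry at most 2 independent values per gene, and their SD and n count columns.

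All 8 macrophage markers examined (such as Lyz2, Csf1r and Cd14) had a mean TPM of at least 1. Of 25 markers of T cells, B cells, mast cells, neutrophils, dendritic cells and fibroblasts, 14 were at 0 in every column, including all 4 mast cell markers. The highest single value was 3.07 TPM for the neutrophil gene S100a8. The 25 markers summed to between 1.56 and 5.24 TPM with DMSO, 1.03 and 4.15 TPM with LPS, and 1.81 and 5.08 TPM with LPS + Ska. The macrophage markers, led by the lysozyme gene Lyz2, summed to between 12300 and 13300 TPM with DMSO, 7270 and 7670 TPM with LPS, and 13600 and 13900 TPM with LPS + Ska. That sum follows Lyz2, with means of 9151, 4423 and 10060 TPM, and the other markers did not share its course. Csf1r (835, 522 and 467 TPM) and Spi1 (408, 233 and 230.2 TPM) were called lower in both groups with LPS, Cd14 (1296, 1523 and 2218 TPM) was called higher in LPS + Ska than in DMSO, Fcgr1 (30.5, 34.1 and 22.4 TPM) was called lower in LPS + Ska compared with LPS, and Cd68, Adgre1 and Itgam were not called. The part of these markers in the results was not tested.

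Changes are log2 fold changes of TPM + 1 from limma, fitted over all 12819 genes and 9 columns, each with its standard error (SE). For genes of low TPM the pseudocount shrinks this fold. A gene was called when its Benjamini-Hochberg adjusted p was below 0.05 and its fold on this scale was above 1.5 or below 0.67. Across all genes, 32.7% were called in LPS compared with DMSO (12.7% higher and 20% lower), 9.49% in LPS + Ska compared with LPS (3.35% higher and 6.14% lower), and 36.7% in LPS + Ska compared with DMSO (11.4% higher and 25.3% lower). The median gene was at -0.07, -0.10 and -0.18. Scaling by the median ratio across genes moved these medians by 0.07, 0.09 and 0.16, and turned the share of called genes that were higher from 35.3% to 52.0% in LPS + Ska compared with LPS and from 31.0% to 48.4% against DMSO. Any comparison of 2 of the 3 contrasts shares samples, so they are not separate evidence.

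Of the 9 genes tested, LPS compared with DMSO gave 1 called higher and 6 lower, LPS + Ska compared with LPS gave 4 higher and 0 lower, and LPS + Ska compared with DMSO gave 2 higher and 5 lower. These shares stand beside the 32.7%, 9.49% and 36.7% of all genes, and since the genes were picked on these contrasts nothing is read from the difference. Trem3 and Cd200r4 passed the filter on mean TPM only through the groups in which they were higher. Without them, the counts over 7 genes were 0 higher and 6 lower, 3 higher and 0 lower, and 0 higher and 5 lower, with median log2 fold changes of -1.64, 0.52 and -1.13. Columns of LPS and DMSO did not overlap for 6 of the 9 tested genes, Trem3 and Cd200r4 included in the 9, against 68.9% of all tested genes. For LPS + Ska and LPS this was so for 6 of the 9 against 51.2%, and for LPS + Ska and DMSO for 8 of the 9 against 64.8%. In bulk RNA, fewer cells with a transcript and less of it per cell cannot be told apart.

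**Figure D1:**
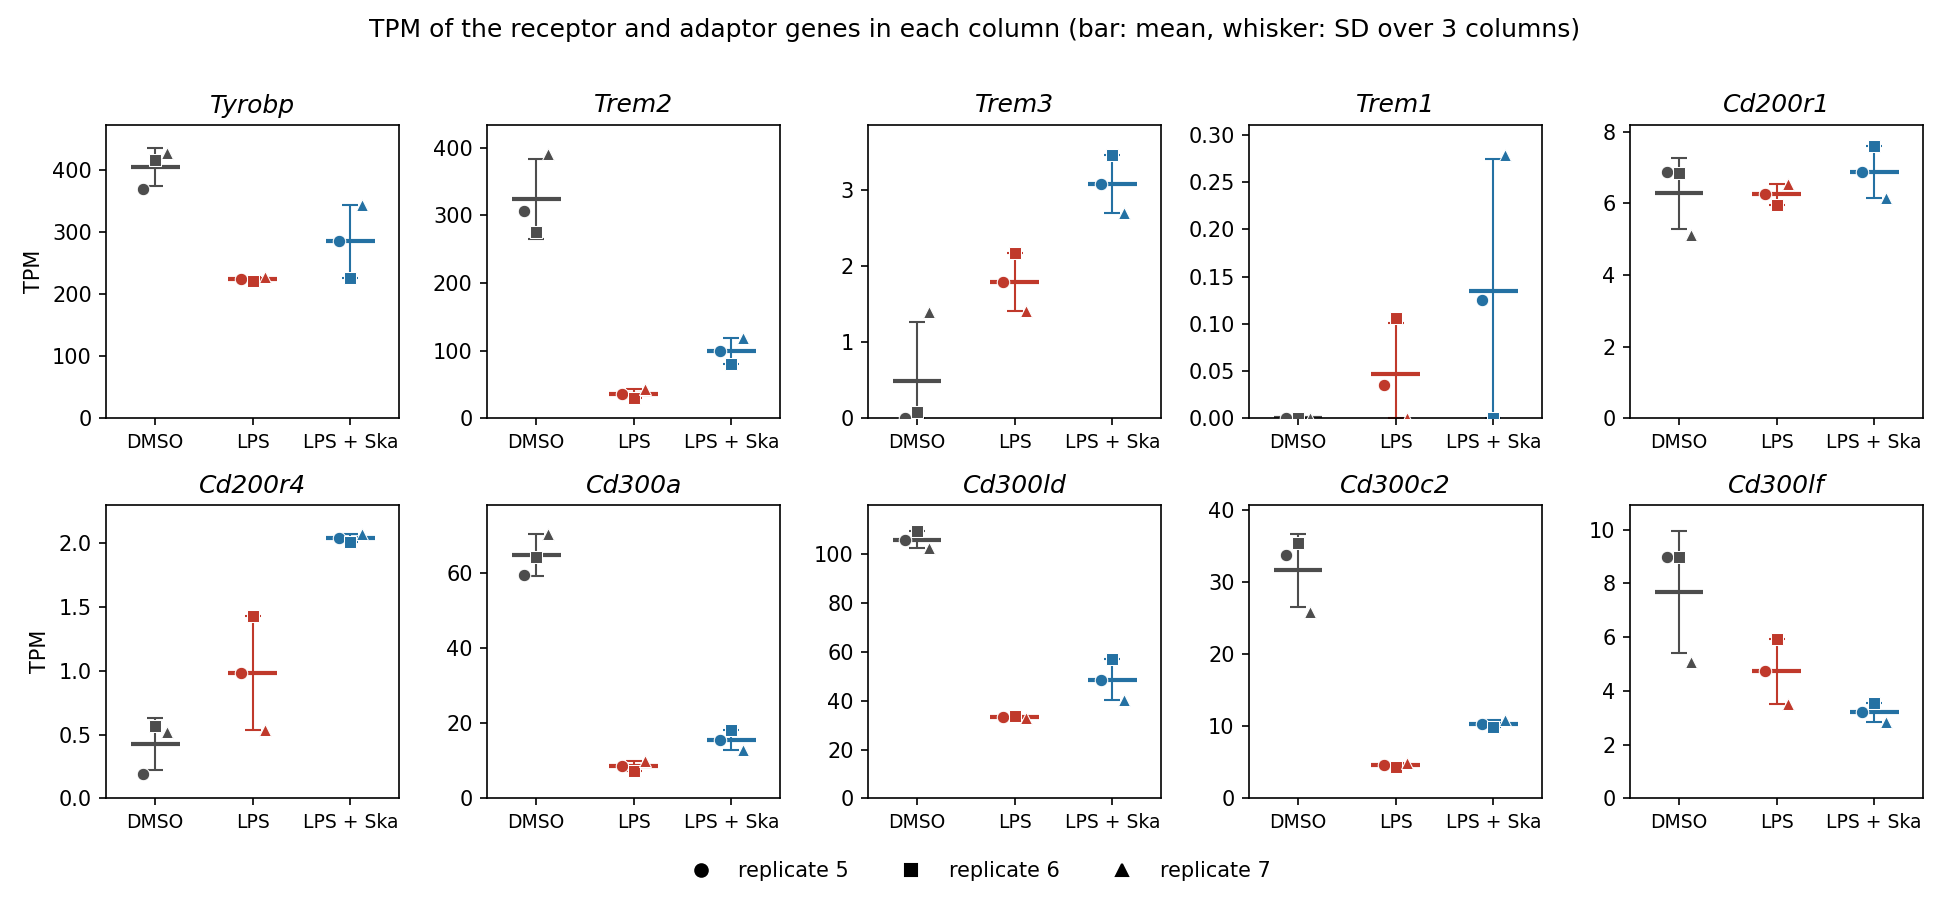
TPM of each of the 10 genes (vertical axes, linear, each with its own range from 0) in the DMSO, LPS and LPS + Ska columns, with symbols for replicates 5, 6 and 7, a bar at the mean and whiskers of 1 SD over 3 columns. Trem2, Cd300a, Cd300ld and Cd300c2 were highest with DMSO, lowest with LPS and between these with LPS + Ska, whereas Trem3 and Cd200r4 had their highest mean with LPS + Ska and Trem1 stayed at or below 0.279 TPM.

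Tyrobp (ENSMUSG00000030579, chr7:30413760-30417585, plus strand, GRCm38) encodes the shared ITAM adaptor and had the highest TPM of the 10 genes in every group. It had 369, 416 and 426 TPM in DMSO replicates 5, 6 and 7, 224, 219.9 and 228 TPM with LPS, and 285, 226 and 344 TPM with LPS + Ska. Every LPS and LPS + Ska column was below every DMSO column, and the LPS + Ska columns overlapped those of LPS. Recovered values of LPS (222 and 226 TPM) and LPS + Ska (256 and 314 TPM) did not overlap. The means were 404 ± 30.6, 224 ± 3.88 and 285 ± 58.6 TPM (SD, n = 3 columns), so that LPS left 55.4% and LPS + Ska 70.6% of the DMSO level. Tyrobp fell with LPS by 0.85 on the log2 scale (SE 0.13). It was not called in LPS + Ska compared with LPS (0.33) or with DMSO (-0.52), although against DMSO it was called without DMSO replicate 5 (-0.58) or without LPS + Ska replicate 7 (-0.66).

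Trem2 (ENSMUSG00000023992, chr17:48346401-48354147, plus strand) encodes the lipid-binding receptor that signals through TYROBP. It had 306, 276 and 391 TPM with DMSO, 36.2, 29.9 and 42.5 TPM with LPS, and 99.5, 80.5 and 118 TPM with LPS + Ska. No column of one group overlapped those of another. LPS left 11.2% of the DMSO mean of 324 ± 59.7 TPM (SD, n = 3 columns), and LPS + Ska left 30.7% of it, 2.75 times the LPS level. The log2 fold change was -3.13 in LPS compared with DMSO, 1.43 in LPS + Ska compared with LPS and -1.70 in LPS + Ska compared with DMSO (SE 0.18 each). Set against the TPM of its adaptor gene, Trem2 went from 0.803 ± 0.129 per Tyrobp with DMSO (SD, n = 3 columns) to 0.162 ± 0.0252 with LPS and 0.350 ± 0.00547 with LPS + Ska.

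Trem3 (ENSMUSG00000041754, chr17:48247777-48258841, plus strand), a mouse receptor gene of the activating kind, was low in all groups. It was listed at 0, 0.0775 and 1.39 TPM with DMSO, at 1.79, 2.17 and 1.41 TPM with LPS, and at 3.08, 3.46 and 2.70 TPM with LPS + Ska. DMSO replicate 7 nearly reached the lowest LPS column, and all LPS + Ska columns were above all others. Its log2 fold changes were 1.02 in LPS compared with DMSO, 0.55 in LPS + Ska compared with LPS and 1.57 in LPS + Ska compared with DMSO (SE 0.30 each). As its mean TPM passed the filter only through the LPS and LPS + Ska columns, these are given with no call. With a pseudocount of 0.1 the first was 2.65 and the last 3.41.

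Trem1 (ENSMUSG00000042265, chr17:48232768-48246924, plus strand), whose product amplifies inflammatory signals, was near the bottom of the scale. It was listed at 0 in all 3 DMSO columns, at 0.0353, 0.106 and 0 TPM with LPS, and at 0.125, 0 and 0.279 TPM with LPS + Ska. With a mean of 0.0606 TPM it was not tested, and whether it was transcribed could not be settled because the depth is unknown. Trem1, Trem3 and Trem2 lie on the same strand of chromosome 17 within 121.4 kb.

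Cd200r1 and Cd200r4 are neighbours on the plus strand of chromosome 16 and code for receptors with opposite tails. Cd200r1 (ENSMUSG00000022667, chr16:44765736-44794978), the inhibitory receptor for CD200, had 6.87, 6.84 and 5.13 TPM with DMSO, 6.24, 5.94 and 6.54 TPM with LPS, and 6.87, 7.60 and 6.14 TPM with LPS + Ska. The columns of all groups overlapped, and no comparison was called (log2 fold changes between 0.002 and 0.12, SE 0.13 each). Recovered values of LPS (6.09 and 6.39 TPM) and LPS + Ska (7.23 and 6.50 TPM) did not overlap. Cd200r4 (ENSMUSG00000062082, chr16:44811733-44839150), a TYROBP-coupled receptor, had 0.193, 0.566 and 0.518 TPM with DMSO, 0.985, 1.43 and 0.537 TPM with LPS, and 2.04, 2.01 and 2.07 TPM with LPS + Ska. All LPS + Ska columns were above all LPS and DMSO columns, while LPS replicate 7 was within the DMSO range. The recovered LPS values of Cd200r4, 1.21 and 0.761 TPM, were both above the DMSO range. Its log2 fold changes were 0.46 in LPS compared with DMSO, 0.64 in LPS + Ska compared with LPS and 1.10 in LPS + Ska compared with DMSO (SE 0.20 each).

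Like Trem3, Cd200r4 is given with no call, since it passed the filter only through its highest group. The counts over 9 genes include both by their values alone. The difference between LPS + Ska and LPS ranged from 0.47 to 1.07 over the alternatives, and was past the limits in 9 of 17 of them. The replicate block and the recovered values (0.63) were not among these. The TPM of Cd200r4 per TPM of Cd200r1 was 0.0706 ± 0.038 with DMSO (SD, n = 3 columns), 0.160 ± 0.0795 with LPS and 0.300 ± 0.0369 with LPS + Ska.

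The 4 CD300 genes lie within 244.0 kb of chromosome 11, a span that holds 11 genes of the family. Cd300a (ENSMUSG00000034652, chr11:114890041-114904654, plus strand) encodes an inhibitory receptor for membrane phospholipids. It had 59.4, 64.3 and 70.4 TPM with DMSO, 8.64, 7.28 and 9.99 TPM with LPS, and 15.6, 18.3 and 12.9 TPM with LPS + Ska. The groups did not overlap, LPS left 13.3% and LPS + Ska 24.1% of the DMSO mean of 64.7 ± 5.52 TPM (SD, n = 3 columns), and all comparisons were called. The log2 fold changes were -2.78, 0.78 and -2.00 in LPS compared with DMSO, LPS + Ska compared with LPS and LPS + Ska compared with DMSO (SE 0.14 each).

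Cd300c2 (ENSMUSG00000044811, chr11:114996721-115001880, minus strand) encodes an adaptor-coupled receptor. It had 33.8, 35.4 and 25.9 TPM with DMSO, 4.66, 4.40 and 4.91 TPM with LPS, and 10.4, 9.94 and 10.9 TPM with LPS + Ska. Its groups did not overlap either, with 14.7% of the DMSO mean of 31.7 ± 5.10 TPM left by LPS and 32.8% by LPS + Ska (SD, n = 3 columns). Its log2 fold changes were -2.52, 1.01 and -1.51 in the same order (SE 0.12 each), and all were called.

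Cd300ld (ENSMUSG00000034641, chr11:114982274-114989922, minus strand), another activating receptor gene, was the most abundant CD300 gene of the 4. It had 106, 109 and 103 TPM with DMSO, 33.2, 33.6 and 32.9 TPM with LPS, and 48.5, 56.9 and 40.1 TPM with LPS + Ska. The groups did not overlap, and LPS left 31.4% and LPS + Ska 45.8% of the DMSO mean. Cd300ld fell with LPS (-1.64, SE 0.11) and was also lower in LPS + Ska than in DMSO (-1.13, SE 0.11). The difference between LPS + Ska and LPS (0.52) lay inside the fold limit, and was called with median-ratio scaling (0.62) or without LPS + Ska replicate 7 (0.64).

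Cd300lf (ENSMUSG00000047798, chr11:115116214-115133992, minus strand), which encodes another inhibitory receptor, had 8.98, 8.99 and 5.07 TPM with DMSO, 4.72, 5.94 and 3.50 TPM with LPS, and 3.20, 3.55 and 2.85 TPM with LPS + Ska. The LPS columns overlapped those of both other groups, whereas all LPS + Ska columns were below all DMSO columns. Recovered LPS values (5.334 and 4.113 TPM) overlapped those of DMSO but not those of LPS + Ska (3.375 and 3.024 TPM). LPS left 61.5% and LPS + Ska 41.7% of the DMSO mean of 7.68 ± 2.26 TPM (SD, n = 3 columns). Cd300lf was called lower in LPS + Ska compared with DMSO (-1.01, SE 0.22). In LPS compared with DMSO its fold (-0.59, SE 0.22) was at the limit, and the call held in 8 of 18 alternatives. It was lost without DMSO replicate 5 or 6 (-0.47 each), without LPS replicate 5 (-0.60) or 7 (-0.42) and without LPS + Ska replicate 5 (-0.59), and with median-ratio scaling (-0.51). The call was also lost with recovered values in place of the tied columns (-0.57). Cd300lf was the only one of the 9 genes with a log2 fold change below 0 in LPS + Ska compared with LPS (-0.43), and this was not called.

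**Figure D2:**
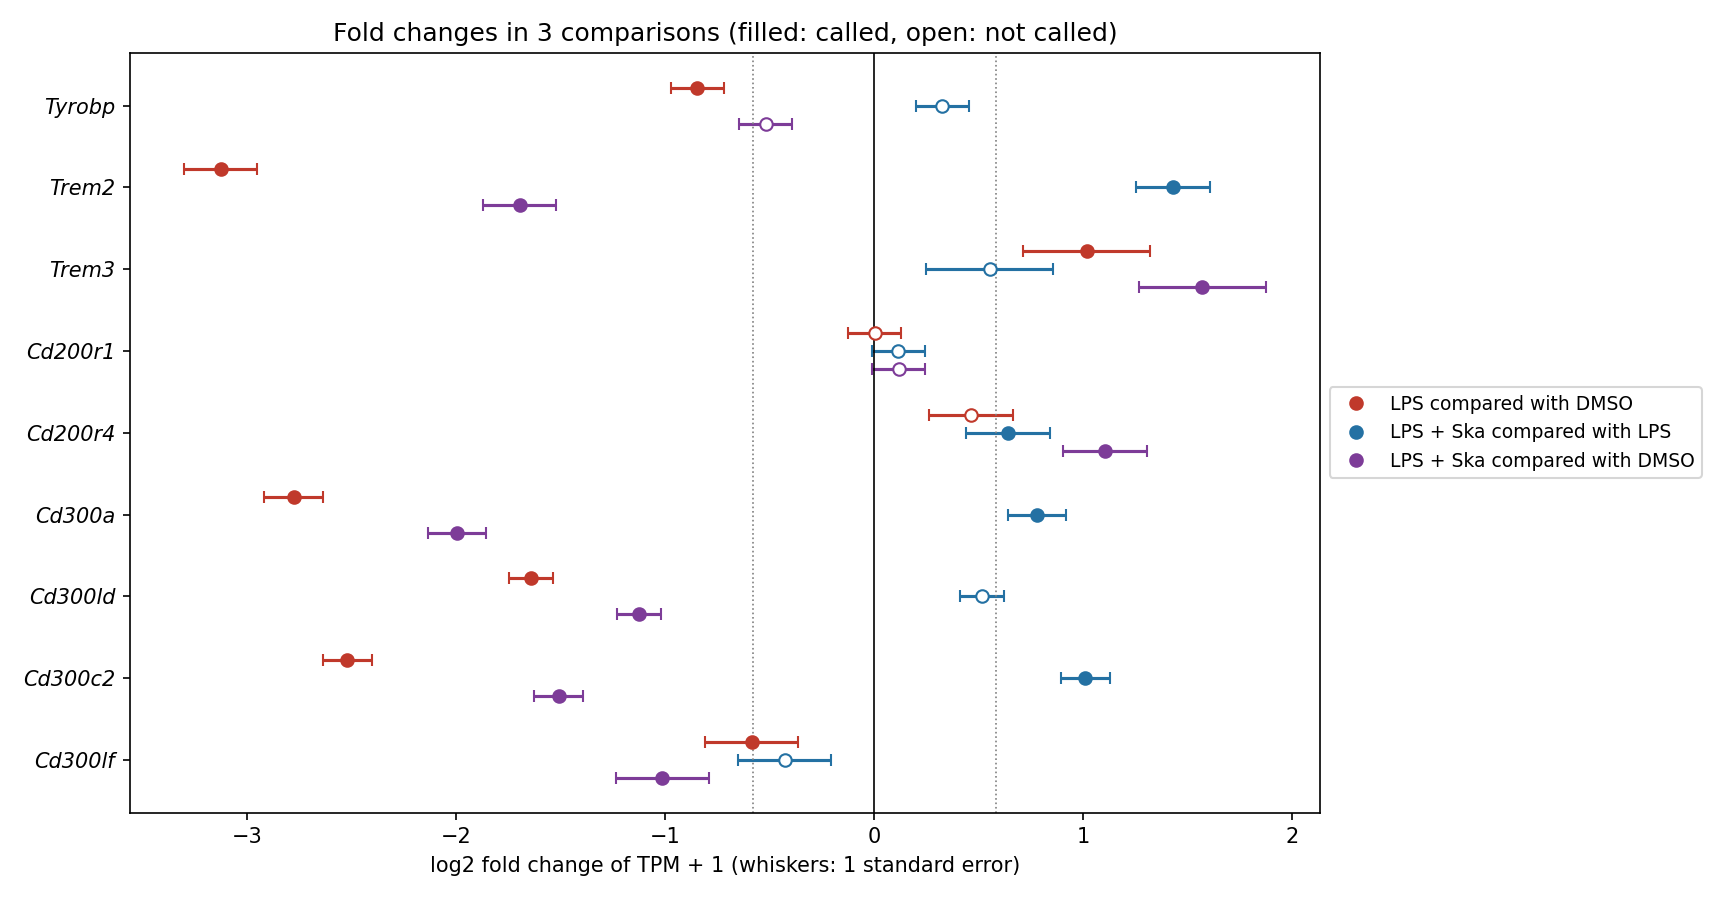
Log2 fold change of TPM + 1 (horizontal axis) of the 9 tested genes in the 3 comparisons, with whiskers of 1 standard error, filled symbols for values past the limits and dotted lines at the fold limits. Filled symbols of Trem3 and Cd200r4 are not calls, as both passed the filter only through the groups in which they were higher. Trem2, Cd300a, Cd300c2 and Cd300ld lie furthest to the left in LPS compared with DMSO, between -3.13 and -1.64, and all lie to the right of 0 in LPS + Ska compared with LPS, between 0.52 and 1.43.

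Within a cluster or pair, the genes moved by unequal amounts. Cd300a per Cd300ld was 0.612 ± 0.0665 with DMSO, 0.260 ± 0.0435 with LPS and 0.321 ± 0.000409 with LPS + Ska, and Cd300c2 per Cd300ld was 0.299 ± 0.0399, 0.140 ± 0.00924 and 0.220 ± 0.0482 (ratios of TPM, SD, n = 3 columns). Since the median gene of LPS + Ska against DMSO was itself below 0 and moved with the scaling, the changes relative to it are also given. They were -1.82 for Cd300a, -1.52 for Trem2, -1.33 for Cd300c2, -0.95 for Cd300ld, -0.84 for Cd300lf, -0.34 for Tyrobp, 0.29 for Cd200r1, 1.28 for Cd200r4 and 1.75 for Trem3. No log2 fold change of the 9 genes changed sign under either of the 2 scaling alternatives.

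TPM allows levels to be set side by side between genes. With DMSO the order ran from Tyrobp and Trem2, whose columns overlapped, through Cd300ld, Cd300a and Cd300c2 to Cd300lf and Cd200r1, which overlapped, and then to Trem3 and Cd200r4, which also overlapped, with Trem1 last. With LPS, Trem2 fell into the range of Cd300ld, and Cd300lf overlapped both Cd200r1 above it and Cd300c2 below it, which did not overlap each other. Recovered values of Cd300lf and Cd200r1 with LPS did not overlap. With LPS + Ska, Trem2 stood above Cd300ld again without overlap, Cd300c2 was above Cd200r1, and Cd300lf could not be told from Trem3 by its columns.

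**Figure D3:**
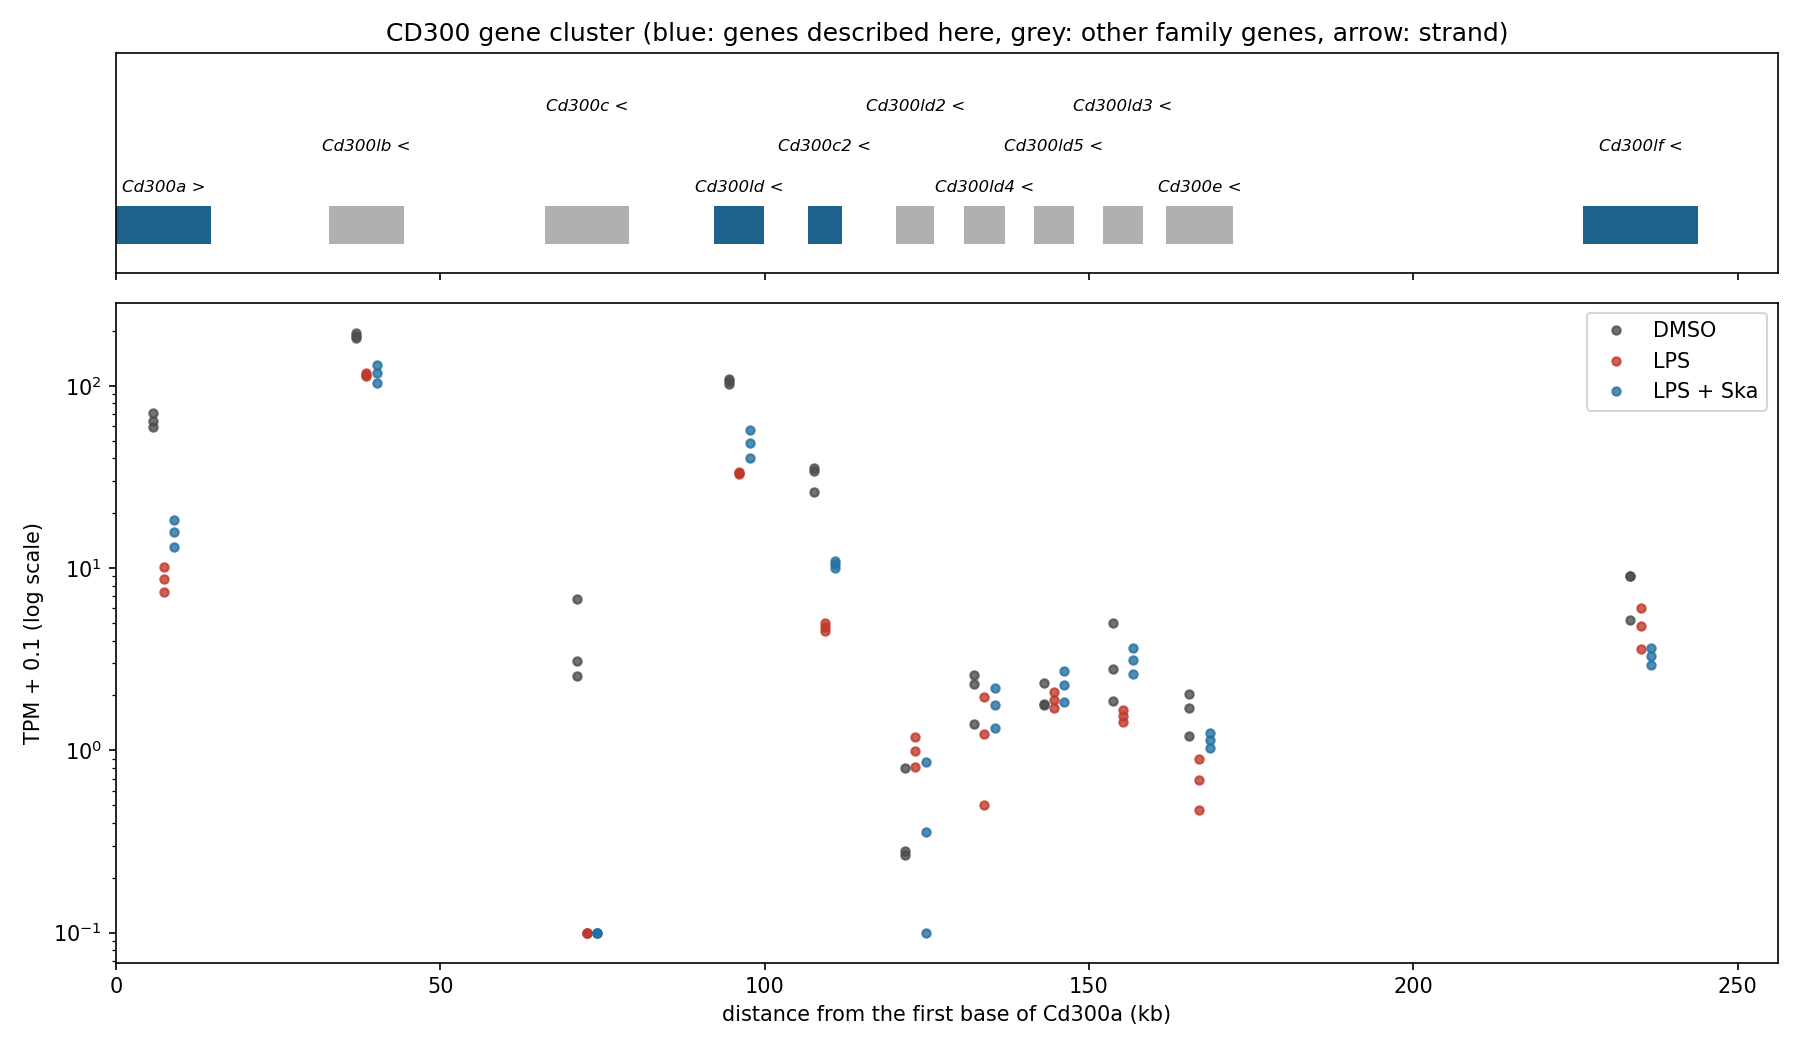
The CD300 cluster on chromosome 11 by distance in kb from the first base of Cd300a (horizontal axis), with gene bodies above, blue for the genes followed here, and the TPM + 0.1 of each gene in each of 9 columns below (log scale). Cd300a, Cd300ld and Cd300c2 have LPS + Ska columns between those of LPS and DMSO, whereas neighbouring Cd300lb has LPS + Ska columns that overlap its LPS columns.

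The promoters of the receptor genes were read for the binding letters of factors known in macrophages. RefSeq (GRCm38.p6) entries were found for 7 of the 10 genes, and Trem3, Tyrobp and Cd200r1 were not matched. The Cd200r4 entry starts inside the gene span given above, with the 150 bases before its start at chr16:44820578-44820727 (plus). The Cd300ld entry also starts inside its gene span, with these bases at chr11:114989887-114990036 (minus). The letters of Cd200r4 and Cd300ld are therefore not those directly before their gene spans. The letters GAGGAA, the core recognized by the myeloid factor PU.1, occurred on either strand of the 250 bases before the start in 6 of these 7 (all but Cd200r4) and in 23.3% of 32851 mouse promoters. The 150 bases just before the start are shown for the 3 genes with the largest falls with LPS, and for Cd300lf, the CD300 gene that was not higher with LPS + Ska than with LPS. Capitals mark the PU.1 core, which in these 4 is read as TTCCTC because it lies on the other strand, and each line runs 5′ to 3′ on the strand of its gene. The windows are chr17:48346251-48346400 (plus) for Trem2, chr11:114889891-114890040 (plus) for Cd300a, chr11:115001881-115002030 (minus) for Cd300c2 and chr11:115133993-115134142 (minus) for Cd300lf.
Trem2: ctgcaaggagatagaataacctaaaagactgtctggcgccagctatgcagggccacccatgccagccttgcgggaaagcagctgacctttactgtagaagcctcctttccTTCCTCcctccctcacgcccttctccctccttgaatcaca
Cd300a: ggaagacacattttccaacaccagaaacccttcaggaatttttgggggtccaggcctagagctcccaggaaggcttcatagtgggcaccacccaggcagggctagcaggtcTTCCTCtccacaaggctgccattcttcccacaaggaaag
Cd300c2: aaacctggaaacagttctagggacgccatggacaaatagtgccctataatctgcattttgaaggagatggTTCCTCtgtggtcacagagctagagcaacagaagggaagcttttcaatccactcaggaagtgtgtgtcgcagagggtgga
Cd300lf: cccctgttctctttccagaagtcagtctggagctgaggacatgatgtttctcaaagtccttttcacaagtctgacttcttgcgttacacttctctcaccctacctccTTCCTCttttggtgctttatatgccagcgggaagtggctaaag
The core began 40 bases before the start in Trem2, 39 in Cd300a, 43 in Cd300lf and 80 in Cd300c2. Its part in the changes was not tested.

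Other letters were rarer. The AP-1 letters TGANTCA occurred in 1 of the 7 promoters, Trem2, where the line above ends in them 9 to 3 bases before the start, and in 6.75% of all promoters. The kappaB letters, GGGA and TTCC with 2 bases between them, occurred in 1, Cd300ld, where they overlapped its PU.1 core, and in 1.21% of all. The letters TATAAA occurred in 1, Cd300lf, and in 12.4% of all. The interferon response letters, GAAA and GAAA with 2 bases between them, and the E-box CACGTG occurred in 0 of the 7, and in 2.98% and 6.02% of all promoters. A match says only that the letters are there. The PU.1 gene itself, Spi1, had 408 ± 2.74 TPM with DMSO (SD, n = 3 columns), 233 ± 9.18 TPM with LPS and 230.2 ± 18.8 TPM when skatole was added.

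Because the receptors are paralogs, reads could be split between them. Of the 50-base stretches of their annotated transcripts, 0% were shared with another gene for Trem1, Trem2, Trem3 and Tyrobp, 1.16% for Cd200r1 and 4.94% for Cd200r4. For the CD300 genes the share was 3.18% for Cd300a, 3.89% for Cd300ld, 2.29% for Cd300lf and 7.16% for Cd300c2. It was 82.1% for Cd300ld3, 93.8% for Cd300ld4 and 100% for Cd300ld5, so the levels of these neighbours are uncertain.

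Genes around the receptors were taken from 5 lists made by known role (other family genes, adaptors and TYROBP-coupled receptors, ITAM kinases and adaptors, inhibitory phosphatases and adaptors, and ligands, co-receptors and sheddases). The lists were made with earlier results of these data known, so their counts and p-values are given as a description. Of 61 genes, 57 were in the table and 44 were tested. In LPS compared with DMSO 5 were called higher and 17 lower, beside 32.7% of all genes called, with a median of -0.32 against -0.07 for all genes. In LPS + Ska compared with LPS 2 were higher and 1 lower, beside 9.49% of all genes, with a median of -0.05 against -0.10. In LPS + Ska compared with DMSO 4 were higher and 18 lower, beside 36.7% of all genes, with a median of -0.36 against -0.18. The 3 genes past the limits between LPS + Ska and LPS were Treml1, Hcst and Vav3. Treml1 is counted by its values alone, as it passed the filter only through the groups in which it was higher. The count moved to 1 without LPS replicate 5 or LPS + Ska replicate 5 and to 6 without LPS + Ska replicate 6.

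Among the other family genes, 7 were tested, of which 5 were called lower with LPS and 0 higher (limma, also 0 higher at an unadjusted p under 0.05). Of all genes, 20% were called lower and 12.7% higher in this comparison. Treml1, Cd300c and Cd300e are counted among the 5 by their values alone, as they passed the filter only through groups in which they were higher. Without them, Cd300lb and Cd300ld3 remain, and nothing is read from the difference to all genes. Treml1 (ENSMUSG00000023993), a TREM-like gene next to Trem2, had 6.32, 6.67 and 7.88 TPM with DMSO, 0.614, 1.02 and 0.208 TPM with LPS, and 1.65 TPM in each LPS + Ska column. The log2 fold change of Treml1 was -2.33 in LPS compared with DMSO and 0.75 in LPS + Ska compared with LPS. As it passed the filter only through the DMSO and LPS + Ska columns, both are given with no call. The second was not past the limits without LPS replicate 5 (0.76) or 7 (0.56) or LPS + Ska replicate 5 (0.75). Cd300lb, a TYROBP-coupled receptor gene and the most abundant of the cluster, went from 189 ± 6.16 TPM (SD, n = 3 columns) to 115 ± 2.13 TPM with LPS, and was at 117 ± 12.8 TPM when skatole was added. It fell with LPS by 0.72 (limma, adjusted p = 4.1e-05), and its change of 0.02 between LPS + Ska and LPS was not called (limma, adjusted p = 0.86). Its call in LPS + Ska compared with DMSO (-0.69; limma, adjusted p = 4.1e-05) was lost with median-ratio scaling (-0.51).

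Cd300c had 2.98, 6.67 and 2.46 TPM with DMSO and was listed at 0 in all LPS and LPS + Ska columns, so no fold is given. It passed the filter only through DMSO, although it counts among the 5 called lower. Cd300e, with group means of 1.55, 0.584 and 1.03 TPM, had a log2 fold change of -0.68 with LPS, and of -0.57 without DMSO replicate 6. It passed the filter only through the groups in which it was higher, so this is given with no call, although the 5 include it. Cd300ld3 was at its limit (-0.69; limma, adjusted p = 0.037), and kept the call in 7 of 17 alternatives. It lost it without DMSO replicate 5 (-0.39) or 6 (-0.73), without LPS replicate 5 (-0.69), 6 (-0.65) or 7 (-0.72), or without LPS + Ska replicate 5 (-0.69). The call was also lost with recovered values (-0.68). In LPS + Ska compared with LPS, Cd300ld3 was not called (0.72; limma, adjusted p = 0.057) and was called in 5 of 17 alternatives, without DMSO replicate 5 or 7 (0.72 each), with the compared groups alone (0.72), with median-ratio scaling (0.79) and with a pseudocount of 0.1 (1.01). Cd300ld4 (-0.53; limma, adjusted p = 0.13) and Cd300ld5 (-0.03; limma, adjusted p = 0.88) were not called with LPS, although Cd300ld4 was without LPS replicate 7 (-0.77).

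Hcst, the gene of the adaptor DAP10, lies next to Tyrobp on the opposite strand (chr7:30417712-30419854). It had 28.0, 19.3 and 14.4 TPM with DMSO, 10.0, 8.59 and 11.4 TPM with LPS, and 19.9, 14.8 and 24.9 TPM with LPS + Ska. Hcst fell with LPS by 0.93 (limma, adjusted p = 0.0079), and was higher in LPS + Ska than in LPS by 0.90 (limma, adjusted p = 0.021). The latter call was lost without LPS replicate 5 (0.91) or 6 (0.81), without LPS + Ska replicate 5 (0.89) or 7 (0.73) and with no filter, with adjusted p between 0.0093 and 0.073 over the alternatives. The library kit is not stated to keep strand. The other ITAM adaptor gene, Fcer1g, with group means of 383, 356 and 402 TPM, had log2 fold changes of -0.11, 0.18 and 0.07 in the 3 comparisons, none of them called.

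Of the other TYROBP-coupled receptor genes, Sirpb1a (1.01, 2.38 and 2.83 TPM on average) was called higher with LPS (0.79; limma, adjusted p = 0.022) and with LPS + Ska compared with DMSO (0.96; limma, adjusted p = 0.0082). The LPS call of Sirpb1a was lost without DMSO replicate 5 (0.53) or LPS replicate 5 (0.79) or 6 (0.69), and with no filter on low values (0.79). Siglec15 (2.68, 0.957 and 0.358 TPM on average) had log2 fold changes of -0.89 with LPS and -1.45 with LPS + Ska, each compared with DMSO. It passed the filter on mean TPM only through DMSO, so these are given with no call, although the list counts include it. With a pseudocount of 0.1 the first value of Siglec15 was -1.36, which was not past the limits, and the second was -3.03. Clec5a, at 137 ± 3.21, 163 ± 9.02 and 178 ± 23.2 TPM (SD, n = 3 columns), was not called.

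Downstream of the ITAM, 2 of 17 kinase and adaptor genes were called higher with LPS and 5 lower (beside 12.7% and 20% of all genes). Syk, the kinase that the phosphorylated ITAM recruits, was at 16.3 ± 1.75 TPM with DMSO and 16.3 ± 1.05 TPM with LPS, and at 11.9 ± 0.00785 TPM when skatole was added (SD, n = 3 columns). Its change between LPS + Ska and LPS was inside the fold limit (-0.42; limma, adjusted p = 0.0093). Lcp2, the adaptor SLP-76, rose with LPS by 1.38 (limma, adjusted p = 4.8e-07) and stayed near that level with LPS + Ska, at 234 ± 2.29 and 233 ± 18.1 TPM (SD, n = 3 columns). The Src family kinase gene Fgr fell with LPS by 1.30 (limma, adjusted p = 2.0e-05), as did the adaptor gene Card9 by 0.90 (limma, adjusted p = 0.010). Vav3, an exchange factor gene, had 7.48 ± 1.37 TPM with DMSO (SD, n = 3 columns), 13.9 ± 0.259 TPM with LPS and 6.98 ± 1.10 TPM when skatole was added. It was the only one of the 44 tested genes of the lists that was called lower in LPS + Ska than in LPS (-0.91; limma, adjusted p = 0.0017).

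On the inhibitory side, 1 of 8 genes was called higher with LPS and 4 lower (beside 12.7% and 20% of all genes). In LPS + Ska compared with LPS, limma called 0 of them, beside 9.49% of all genes (3 lower and 0 higher at an unadjusted p under 0.05). Ptpn6, the gene of the phosphatase SHP-1 (-0.42; limma, adjusted p = 0.0010), Rasa1 (-0.54; limma, adjusted p = 0.0043) and Inpp5d (-0.36; limma, adjusted p = 0.026) passed the limit on p in that comparison but lay inside the fold limit. Dok1, an adaptor of CD200R1 signaling, fell with LPS from 39.6 ± 2.77 to 15.5 ± 0.111 TPM (SD, n = 3 columns) and was at 15.8 ± 1.72 TPM with LPS + Ska, a change of -1.30 with LPS (limma, adjusted p = 3.0e-06). Csk, which restrains Src kinases, fell with LPS by 0.76 (limma, adjusted p = 8.3e-06). Rasa1, a Ras GTPase-activating protein gene, rose with LPS by 1.48 (limma, adjusted p = 2.6e-06). Inpp5d, the phosphatase SHIP-1, was lower in LPS + Ska than in DMSO by 0.99 (limma, adjusted p = 2.8e-05).

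Among ligands, co-receptors and sheddases, 7 were tested. Apoe, a lipoprotein component that TREM2 binds, went from 18.0 ± 3.86 TPM (SD, n = 3 columns) to 6.68 ± 1.04 TPM under LPS and 5.79 ± 2.05 TPM under LPS + Ska, and its change with LPS was -1.30 (limma, adjusted p = 9.2e-04). Sema6d, a semaphorin gene, was higher with LPS than with DMSO by 1.15. It passed the filter on mean TPM only through the LPS and LPS + Ska columns, so this is given with no call, although the list counts include it. Clu was lower in LPS + Ska than in DMSO by 0.82, and is likewise given with no call, as it passed the filter only through DMSO. The sheddase genes Adam10 and Adam17 had log2 fold changes between -0.12 and 0.06 in the 3 comparisons and were not called. In LPS + Ska compared with LPS, limma called 0 of the 7, beside 9.49% of all genes (1 at an unadjusted p under 0.05).

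**Figure D4:**
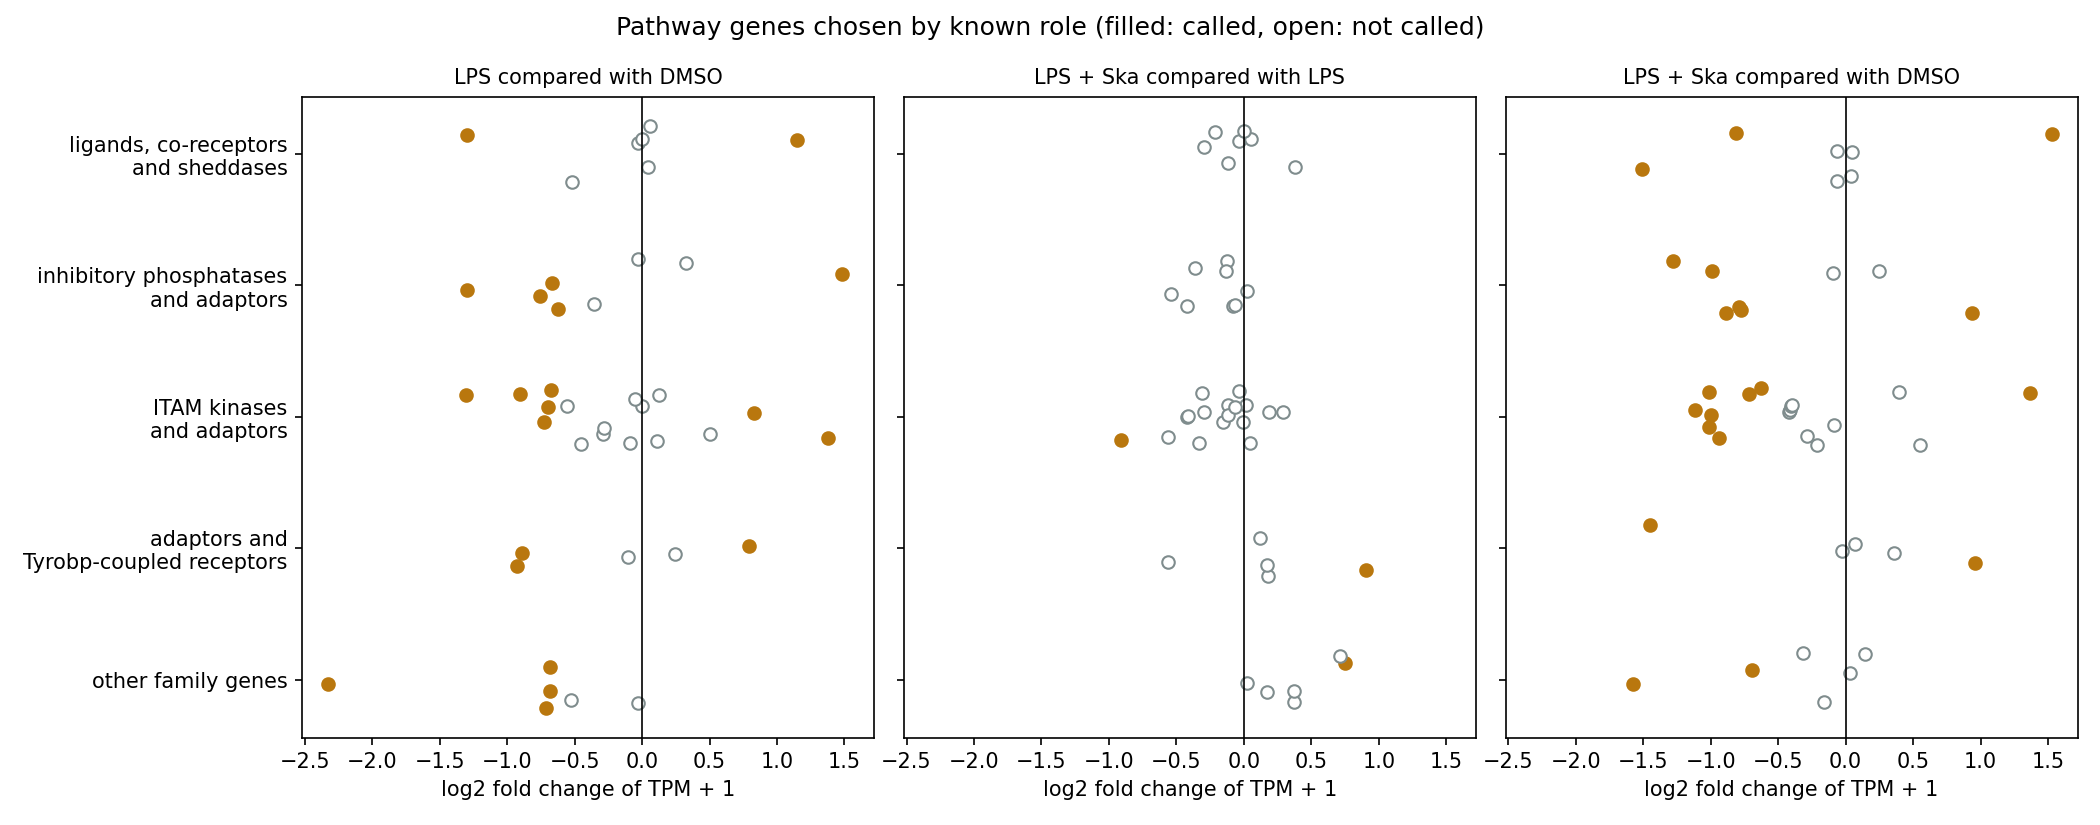
Log2 fold change of TPM + 1 (horizontal axes, the same range in each panel) of the tested genes in the 5 role lists, 1 panel per comparison, filled when past the limits, with vertical jitter within a list. Cd300c is left out because it was listed at 0 with LPS and with LPS + Ska. Filled symbols of Treml1, Cd300e, Siglec15, Sema6d and Clu are not calls, as these genes passed the filter only through the groups in which they were higher. Of the 43 genes drawn, these included, 21 were past the limits in LPS compared with DMSO. The counts were 3 in LPS + Ska compared with LPS and 21 in LPS + Ska compared with DMSO.

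The genes whose log2(TPM + 1) followed that of Trem2 most closely over the 9 columns were Eci2, Susd3 and Adap1 (Pearson r of 0.996, 0.995 and 0.994). For Cd200r4 these were Hspa1b, Prmt2 and Sat1 (0.989, 0.985 and 0.979), and for Trem1, whose values were near 0, Tmsb10, Rangrf and Tsfm (0.946, 0.942 and 0.934). These are descriptions over columns that form 3 groups and are tied within 2 of them.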

How the data were processed

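RNA from RAW264.7 cells treated with DMSO, LPS or LPS + Ska (3 samples each) was sequenced by the authors. Per the submitters' processing notes, reads were handled with fastp 0.20.1, HISAT2 2.2.1 and StringTie 2.0 on mm10. The annotation is not given in the sources used here. The authors deposited TPM for 55401 Ensembl genes, of which 55141 matched a symbol. TPM keeps no depth.

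With limma 3.58.1 (R 4.3.3), lmFit and eBayes (trend by intensity) were run on log2(TPM + 1) of all 9 columns. The 12819 genes tested had a mean TPM of 1 or more. The test was checked on simulated data. The 10 genes and the role lists were chosen with earlier results of these data known. Named beside the 10 genes were, from each list and comparison, up to 3 called genes with the largest absolute change, every other family gene with a mean TPM of at least 1, the 3 genes most like Trem2, Trem1 and Cd200r4, and cell type markers. A gene that this rule names is not reported here. Fcer1g, Clec5a, Syk, Ptpn6, Adam10 and Adam17 were named outside this rule, after their values had been seen. Promoters and positions came from RefSeq and GENCODE (GRCm38).

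The alternatives tried were the removal of the filter or its rise to a mean TPM of 5, a smaller pseudocount (0.1), scaling by the median ratio, a total without mitochondrial-genome and ribosomal protein genes, fits of only the groups compared, eBayes without its trend, the replicate number as a block, recovered values (replicate 5 plus and minus 0.5 times the difference of replicate 6 from it, in place of the tied columns) and each column left out in turn.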

Additional observations from a re-analysis of the deposited data

How the results depend on the processing

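Of the 9 tested receptor genes, 7 were past the limits in LPS compared with DMSO (5 to 7 over the 18 alternatives), 4 in LPS + Ska compared with LPS (3 to 5) and 7 in LPS + Ska compared with DMSO (5 to 8). Trem3 and Cd200r4 were counted, though they are given with no call. Of all genes, 32.7%, 9.49% and 36.7% were called, and since the 9 were picked on these contrasts nothing is read from the counts. The calls of Trem2, Cd300a and Cd300c2 in all comparisons did not change. The 3 list genes past the limits in LPS + Ska compared with LPS became 5 with a pseudocount of 0.1, and ranged from 1 to 6 when 1 column was left out. Changes of direction occurred in values near 0 that were not called. With 1 column left out, Cd200r1 ranged from -0.117 to 0.064 in LPS compared with DMSO and from -0.001 to 0.186 in LPS + Ska compared with DMSO, Cd300lb from -0.056 to 0.102 in LPS + Ska compared with LPS, Cd300ld3 from -0.22 to 0.327 in LPS + Ska compared with DMSO, and Cd300ld5 from -0.082 to 0.061 in LPS compared with DMSO, where median-ratio scaling gave 0.023. The cause was not tested. With the replicate number as a block, 7, 3 and 7 receptor genes were past the limits in these 3 comparisons, and the value of Cd200r4 against LPS was no longer past them. Deviations of same-numbered columns correlated at 0.384, 0.151 and 0.128 between LPS and LPS + Ska and at -0.032 to 0.0801 otherwise, and since the columns are tied the numbers were not taken to pair samples. Genes with a mean TPM under 5, among them Trem3, Cd200r4, Cd300e and Treml1, have no value with the stricter filter. Fewer columns or recovered values leave fewer values per group. With depth unknown, low levels such as those of Trem1 could not be judged.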
